A study of Mus musculus with 99 samples.

Results

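Transcripts of 5 neurotrophin genes were followed through 5 brain areas of juvenile mice: the ligands Bdnf (brain-derived neurotrophic factor) and Ntf3 (neurotrophin-3), the receptor tyrosine kinases Ntrk2 (TrkB) and Ntrk3 (TrkC), and the shared receptor Ngfr (p75NTR). The 5 genes were chosen by name, as the ligands and receptors of 1 family, and were found by their Ensembl identifiers among the 55335 genes counted in every library. The libraries were bulk RNA-seq of tissue punches from the ventral tegmental area (VTA), ventrobasal thalamus (VBT), somatosensory cortex (S1), prelimbic cortex (PrL) and nucleus accumbens (NAc) of wildtype C57BL/6 offspring of both sexes. The fentanyl groups came from dams whose drinking water held fentanyl at 10 µg/ml, starting on embryonic day 0 and ending at weaning, and the controls are labelled water. Region, sex and treatment give 20 groups, of which 19 hold 5 libraries and the group of S1, males, water, holds 4. The labels give the concentration offered to the dams and not the dose that reached each pup. The labels do not say whether the libraries of a group came from separate animals or litters, so p-values measure only the spread between these libraries.

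Neurotrophins are secreted as precursors and are cut to mature dimers. Mature BDNF binds TrkB and mature NT-3 binds TrkC, which signal through adaptor proteins to growth, survival and synaptic plasticity, whereas p75NTR binds every neurotrophin and, with sortilin, their precursors. In the brain BDNF is made mainly by excitatory neurons in an activity-dependent way and is carried along axons into areas such as the striatum that make little of it, TrkB and TrkC are widespread, and p75NTR is known from cholinergic neurons of the basal forebrain.

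Bdnf (ENSMUSG00000048482) spans chr2:109674700-109727007 on the plus strand of GRCm38, and Ntf3 (ENSMUSG00000049107) spans chr6:126101412-126166910 on the minus strand. Ntrk2 (ENSMUSG00000055254) lies at chr13:58806569-59133970 on the plus strand, Ntrk3 (ENSMUSG00000059146) at chr7:78175959-78738012 on the minus strand, and Ngfr (ENSMUSG00000000120) at chr11:95568818-95587735 on the minus strand. Their merged exons measure 6217 bases for Bdnf, 1714 for Ntf3, 19292 for Ntrk2, 30170 for Ntrk3 and 3446 for Ngfr in GENCODE M21. A gene count sums all transcripts, so full-length and truncated TrkB or TrkC, and Bdnf transcripts from different first exons, cannot be told apart. The library kit does not mark strand, and 896 exon bases of Bdnf (14.4%) are shared with the antisense gene Gm45346, whose reads cannot be separated there. The other 4 genes share no exon base with another annotated gene.

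Bdnf is transcribed from several alternative starts, and the RefSeq promoter table for GRCm38.p6 holds 7 of them, beside 2 for Ntf3 and 1 each for Ntrk2 and Ngfr. The 250 bases before each start were searched on both strands for 3 motifs. These were the cyclic AMP response element TGACGTCA, its Bdnf variant TCACGTCA, and the core TGACG. The first contains the core on both strands, and the variant on 1 strand. The variant occurred in 1 of the 7 Bdnf windows, and no window of Ntf3, Ntrk2 or Ngfr held any of the 3 motifs. Among 32851 promoter windows of the same length, 0.35% hold the variant, 1.55% the palindrome and 17.8% the core. The window with the match (chr2:109692186-109692435, plus strand, ending at the base before the start at 109692436) is printed because it is the one Bdnf start with a letter match to this activity-responsive element, with the match in capitals 38 bases before the start. The window of the first annotated Bdnf start (chr2:109674450-109674699, plus strand) is printed beside it as one with no match.
Bdnf, start with the match: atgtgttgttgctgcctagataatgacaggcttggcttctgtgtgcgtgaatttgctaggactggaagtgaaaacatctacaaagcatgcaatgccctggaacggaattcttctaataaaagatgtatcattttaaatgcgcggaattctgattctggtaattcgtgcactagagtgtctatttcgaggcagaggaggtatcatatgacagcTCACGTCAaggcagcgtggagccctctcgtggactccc
Bdnf, first annotated start: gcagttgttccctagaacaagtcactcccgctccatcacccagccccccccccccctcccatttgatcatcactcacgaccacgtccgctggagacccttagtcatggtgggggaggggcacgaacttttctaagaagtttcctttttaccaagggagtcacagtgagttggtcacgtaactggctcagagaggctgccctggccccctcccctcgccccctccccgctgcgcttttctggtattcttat
A letter match is a description and not a binding site, and the gene counts do not show which start was used.

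Total gene counts ran from 16515545 to 52069639 per library, with a median of 35979923, and levels are given as CPM, the count scaled to a common library total. The library of VTA, male, water, replicate 3, had 6333 genes detected against 24079 to 27347 in the other 98, and was left out, so that VTA male water is 4 libraries. The marker genes of each area were highest in that area: the VTA list summed to 335 to 1733 CPM there and to at most 69.3 elsewhere, the thalamus list to 1635 to 4816 in VBT and at most 764 elsewhere, and the striatum list to 1096 to 3798 in NAc and at most 714 elsewhere. The cortex list summed to 1320 to 2279 CPM in S1 and PrL, and 1 NAc library reached 1442. Of the libraries that stood apart, VBT female fentanyl 1 held 20.9 CPM of 4 Y-linked genes (at most 1.53 in the other 49 female libraries, and 190 to 313 in males), and VBT female water 2 held 4575 CPM of choroid plexus genes (at most 658 in the other 19 VBT libraries). PrL female water 5 and PrL male water 3 held 208 and 411 CPM of olfactory bulb genes, against at most 42.0 in the other 18. The fentanyl effects of Bdnf in PrL and in VBT females, of Ntrk3 in VBT females and of Ngfr in VBT are also given without those libraries. Other fentanyl effects in these areas, such as that of Ntf3 in PrL, are given with them only.

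The first comparison asks where each gene is transcribed, and uses the water libraries alone. Bdnf was highest in the cortical areas and lowest in thalamus, Ntf3 and Ntrk3 were also lowest in thalamus, Ngfr was lowest in cortex, and Ntrk2 was nearly even. Between the highest and the lowest area the mean differed 36.6-fold for Ntf3, 17.8-fold for Ngfr, 5.01-fold for Bdnf, 4.88-fold for Ntrk3 and 1.25-fold for Ntrk2. The Ngfr value rests on an uneven VBT group, with a mean of 7.81 CPM and a median of 4.25. Differences were tested by edgeR's quasi-likelihood test in 10 pairs of areas, averaged over the sexes, and called at an adjusted p under 0.05 over 21468 genes. Since tissue from these areas differs widely, the share of all genes called was large, from 37.3% between S1 and PrL to 68.4% between VBT and PrL, and a call by itself sets no gene apart. In bulk tissue, fewer cells of a type and less RNA per cell cannot be told apart.

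**Figure D1:**
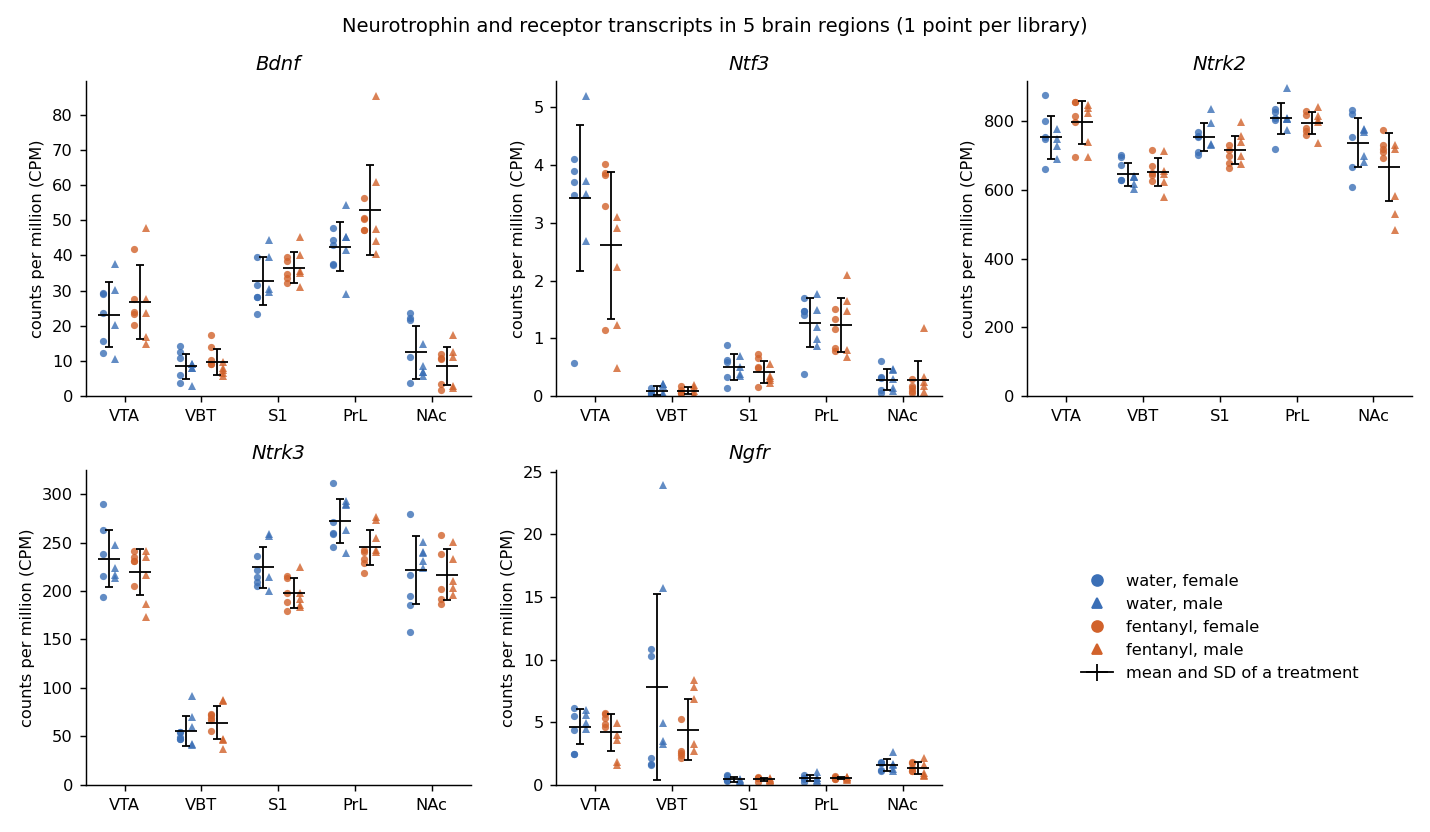
CPM of each gene (vertical axis, starting at 0) in the 5 areas (horizontal axis), 1 point per library, with circles for females, triangles for males, and the black mark and bar for the mean and SD of each treatment. Bdnf sits highest in PrL and S1, Ntf3 in VTA, and Ntrk3 is lowest in VBT, while fentanyl and water points overlap in most groups.

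Bdnf ranged from 28.9 CPM to 54.2 in the PrL water libraries, with a median of 43.7 and a mean of 42.5 ± 6.85 (SD, n = 10), and from 23.4 to 44.4 in S1, with a median of 30.5 and a mean of 32.8 ± 6.80 (SD, n = 9). In VTA it ran from 10.6 to 37.7 (median 23.6, mean 23.2 ± 9.15, SD, n = 9), in NAc from 3.81 to 23.7 (median 9.95, mean 12.5 ± 7.51, SD, n = 10) and in VBT from 2.91 to 14.4 (median 8.53, mean 8.48 ± 3.63, SD, n = 10). The ranges of PrL and VBT did not overlap, and every neighbouring pair in the order PrL, S1, VTA, NAc and VBT overlapped. Neighbours were not told apart by edgeR between S1 and PrL (log2 difference −0.38, adjusted p = 0.258) or between VBT and NAc (−0.36, adjusted p = 0.226). Bdnf was higher in VTA than in NAc, with a log2 difference of 0.94 (SE 0.26), at an edgeR adjusted p of 0.00192. The difference of VTA below S1, at −0.60 (edgeR adjusted p = 0.0461), lost its call in 10 of 48 fits that each left out 1 library, where it lay between −0.61 and −0.48 with adjusted p up to 0.119. Those libraries were VTA female water 1, 4 and 5, VTA male water 1 and 2, S1 female water 2, 4 and 5, and S1 male water 4 and 5. Over the 10 pairs Bdnf was called in 8, and 82.0% of the genes tested had a smaller largest difference between areas.

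Ntf3 was a low transcript that was highest in VTA, where the water libraries held 0.568 to 5.19 CPM with a median of 3.71 (mean 3.43 ± 1.26, SD, n = 9). In PrL it ran from 0.381 to 1.76 (median 1.44, mean 1.27 ± 0.423, SD, n = 10), in S1 from 0.143 to 0.886 (median 0.498, mean 0.502 ± 0.224, SD, n = 9) and in NAc from 0.0578 to 0.611 (median 0.302, mean 0.287 ± 0.187, SD, n = 10). VBT was at the floor, with 0 to 8 counts per library (0 to 0.206 CPM, median 0.0599, mean 0.0937 ± 0.0781, SD, n = 10). The 1 water library at 0 there allows up to 3 counts, or 0.0819 CPM, a limit that covers counting error only. Only the lowest VTA library, female water 1 at 0.568, fell within the PrL range. All 10 pairs were called by edgeR, from 5.13 (SE 0.42) between VTA and VBT down to 0.89 (SE 0.38, adjusted p = 0.0465) between S1 and NAc. With the replicate number as a block, the last of these was not called. That smallest difference lost its call in 14 of 48 fits without 1 library (0.74 to 0.90, adjusted p 0.0501 to 0.112), namely without VTA male water 4 or 5, VBT male water 3, S1 female water 1, 3 or 5, S1 male water 3 or 5, NAc female water 2, 3 or 5, or NAc male water 3, 4 or 5. Of the genes tested, 96.2% had a smaller largest difference between areas.

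Ntrk2, the receptor of BDNF, was the most even of the 5. Its water libraries lay between 718 and 896 CPM in PrL (median 807, mean 808 ± 44.8, SD, n = 10) and between 602 and 703 in VBT (median 636, mean 646 ± 33.2, SD, n = 10), so these ranges did not overlap. S1 (703 to 835, median 752, mean 753 ± 42.0, SD, n = 9), VTA (660 to 876, median 748, mean 753 ± 62.6, SD, n = 9) and NAc (607 to 831, median 760, mean 737 ± 71.8, SD, n = 10) lay between and overlapped one another. Only 7.04% of the genes tested had a smaller largest difference, which for Ntrk2 was 0.28 on the log2 scale against a median of 0.94. It was called in 4 of 10 pairs: VBT below PrL (−0.28) and below S1 (−0.17), and VTA (−0.20) and NAc (0.22 for PrL minus NAc) below PrL, each with an edgeR adjusted p of 0.00382 or less. With offsets for exon length the difference of VBT from S1 was −0.02 (edgeR adjusted p = 0.728). In the fentanyl libraries it was −0.09 (edgeR adjusted p = 0.136). Ntrk2 in S1 was above NAc by 0.11 (edgeR adjusted p = 0.0654), and this was called without any 1 of S1 female water 3, S1 male water 1, NAc female water 1 or 5, or NAc male water 2 (0.12 to 0.14, edgeR adjusted p 0.0225 to 0.0498). VTA minus S1 was −0.10 (edgeR adjusted p = 0.115) and was called without VBT male water 3 (−0.12, edgeR adjusted p = 0.0466).

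Ntrk3, the receptor of NT-3, separated the thalamus from every other area. Its VBT water libraries held 41.1 to 91.2 CPM (median 51.8, mean 55.7 ± 15.1, SD, n = 10), and the lowest library of any other area held 157. PrL was highest at 240 to 311 (median 267, mean 272 ± 22.9, SD, n = 10), followed by VTA at 194 to 289 (median 223, mean 233 ± 29.4, SD, n = 9), S1 at 200 to 259 (median 215, mean 224 ± 21.6, SD, n = 9) and NAc at 157 to 280 (median 228, mean 222 ± 35.1, SD, n = 10). VBT was lower by 1.87 to 2.25 on the log2 scale, and each of these 4 differences was called. VTA, S1 and NAc did not differ from one another beyond their spread (edgeR adjusted p = 0.363 to 0.730). PrL was higher than each of the 3 by 0.29 to 0.39 (edgeR adjusted p = 0.000348 to 0.0132). With offsets for exon length the difference of VTA from PrL shrank from −0.33 to −0.17 (edgeR adjusted p = 0.0835).

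Ngfr was lowest in cortex, at 0.249 to 0.770 CPM in S1 (7 to 33 counts, median 0.385, mean 0.437 ± 0.178, SD, n = 9) and 0.241 to 1.03 in PrL (10 to 47 counts, median 0.538, mean 0.551 ± 0.229, SD, n = 10), which edgeR did not tell apart (−0.39, adjusted p = 0.490). NAc held 1.11 to 2.62 CPM (median 1.62, mean 1.59 ± 0.455, SD, n = 10), so its lowest library lay above the highest cortical one. VTA held 2.43 to 6.18 (median 4.91, mean 4.64 ± 1.38, SD, n = 9). VBT was the most uneven, at 1.57 to 24.0 (median 4.25, mean 7.81 ± 7.42, SD, n = 10), so that it had the highest mean but a median below that of VTA. The call of VTA below VBT (−0.79, edgeR adjusted p = 0.0387) did not hold under several other settings: limma-voom with sample weights gave 0.23 (adjusted p = 0.443), the fentanyl libraries gave −0.17 (edgeR adjusted p = 0.442), and a replicate block gave −0.33 (edgeR adjusted p = 0.367). Leaving out any 1 of 9 libraries also ended it (−0.80 to −0.54, edgeR adjusted p 0.0532 to 0.142), namely VTA female water 1 or 5, VTA male water 2, 4 or 5, VBT female water 1 or 2, or VBT male water 3 or 4. VBT above NAc (2.33) and above the cortical areas (4.16 over S1 and 3.77 over PrL) was called.

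Counted by pair, 5 of the 5 genes were called between VTA and PrL (66.5% of all genes), VBT and S1 (68%), VBT and PrL (68.4%), and PrL and NAc (50.3%). Of the same 5, 4 were called between VTA and VBT (52.5%), 3 between VTA and S1 (67.6%), VTA and NAc (64.8%), VBT and NAc (67.8%), and S1 and NAc (53.3%), and 2 between S1 and PrL (37.3%). In all, 38 of 50 differences were called in the water libraries and 39 in the fentanyl libraries, and the 35 called in both had the same sign.

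For a rough comparison between genes, CPM was divided by the merged exon length. That length counts every annotated exon and not the transcripts in use, so the ratios depend on the annotation. On this scale Ntrk2 was the highest of the 5 in every area, at 33.5 to 41.9 CPM per kilobase. Its ratio to Ntrk3 was 4.64 to 5.25 in PrL, VTA, NAc and S1 and 18.1 in VBT, where Ntrk3 was at 1.85 CPM per kilobase against 7.36 to 9.02 elsewhere. Bdnf stood at 1.36 CPM per kilobase in VBT and 6.84 in PrL, and Ntf3 at 0.0547 in VBT and 2.002 in VTA. Bdnf exceeded Ntf3 per kilobase in all 5 areas, by 1.86 times in VTA and 25.0 times in VBT. Ngfr stood at 0.127 CPM per kilobase in S1 and 2.27 in VBT.

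**Figure D2:**
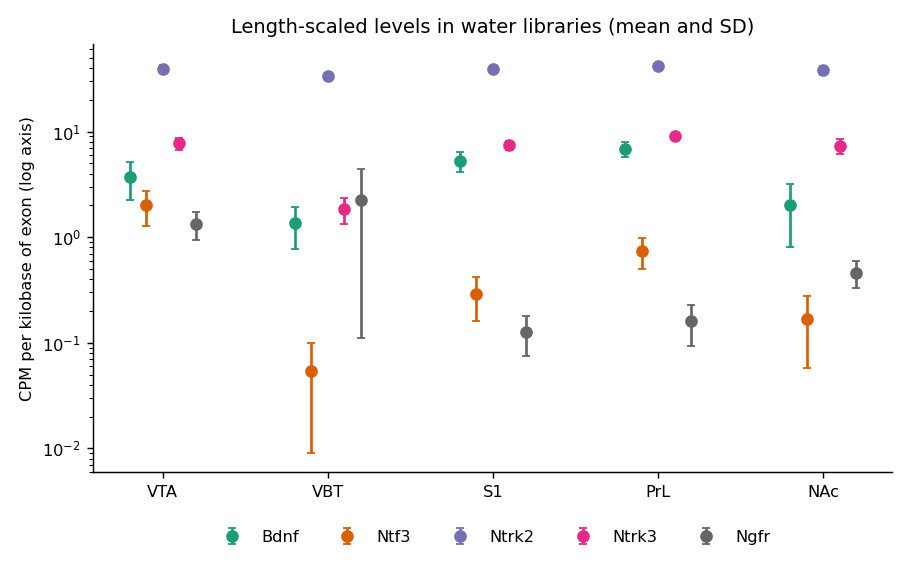
Mean and SD over water libraries (9 in VTA and S1, 10 in VBT, PrL and NAc) of CPM per kilobase of exon, on a log vertical axis, for the 5 genes in the 5 areas. Ntrk2 lies above the others everywhere, Ntrk3 drops in VBT, and Ntf3 and Ngfr span more than Bdnf.

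A further ligand and a co-receptor were read in the water libraries. Ntf5 (neurotrophin-4), a second TrkB ligand, had a mean of at most 0.329 CPM, in PrL. Sort1 (sortilin, the partner of p75NTR for precursors) ranged from 316 ± 20.3 CPM in VTA to 594 ± 48.7 in S1 (SD, n = 9 each).

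The sexes were compared in the water libraries as males minus females. None of the 5 genes was called in any area by edgeR, where the share of all genes called was 0.0472% in PrL, 0.0504% in VTA, 0.0513% in NAc, 0.0557% in S1 and 0.0898% in VBT. These are 9 to 17 genes per area, and the count went from 10 to 174 in NAc without NAc female water 3 and from 10 to 68 in VTA without VTA female water 4. None of these tests had an unadjusted p under 0.05 by edgeR, against 3.40% (PrL) to 10.8% (VTA) of all genes. The smallest edgeR adjusted p was 0.577. Bdnf in NAc stood at −0.99 (interval −2.29 to 0.32), where water females held 3.81 to 23.7 CPM and water males 5.72 to 14.7. Ngfr in VBT stood at 0.96 (interval −0.35 to 2.26), with 1.57 to 10.8 CPM in females and 3.29 to 24.0 in males. Ngfr in S1 stood at −0.60 (interval −1.33 to 0.13), with 0.329 to 0.770 CPM in females and 0.249 to 0.448 in males. The sexes overlapped in each of these 3 cases.

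The second comparison asks whether perinatal fentanyl changed these transcripts in each area and sex. No call was made for any of the 5 genes in 20 contrasts (females, males, their average and the sex difference of the effect, in 5 areas) by edgeR. Of 96 gene tests, 9 had an unadjusted p under 0.05 by edgeR, and the smallest adjusted p was 0.0847. The share of all genes with an unadjusted p under 0.05 ran from 2.59% (sex difference of the effect in PrL) to 35.4% (VTA average). Ntf3 was too low to be tested in VBT. DESeq2 called 1 of the 96 and limma-voom 4, all of them Ngfr or Ntrk2. By the same tools the calls over all genes were also more: 25.4% by DESeq2 and 32.9% by limma-voom in VTA males, 26.9% by limma-voom for the VTA average and 7.76% by limma-voom in NAc males, of the genes edgeR tested. By edgeR the background of calls over all genes was 22% in VTA males and 23.1% for the VTA average, 0.142% in S1 females, 1.03% for the S1 average, 0.021% in PrL females, 0.697% for the PrL average and 0.662% in NAc males. It was 0% in the other 13 contrasts, among them all 4 in VBT, though single libraries or another tool moved several of these from 0. The VTA background rests on leaving out the library of few genes: with it kept, 42 genes in place of 4355 were called in VTA males.

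**Figure D3:**
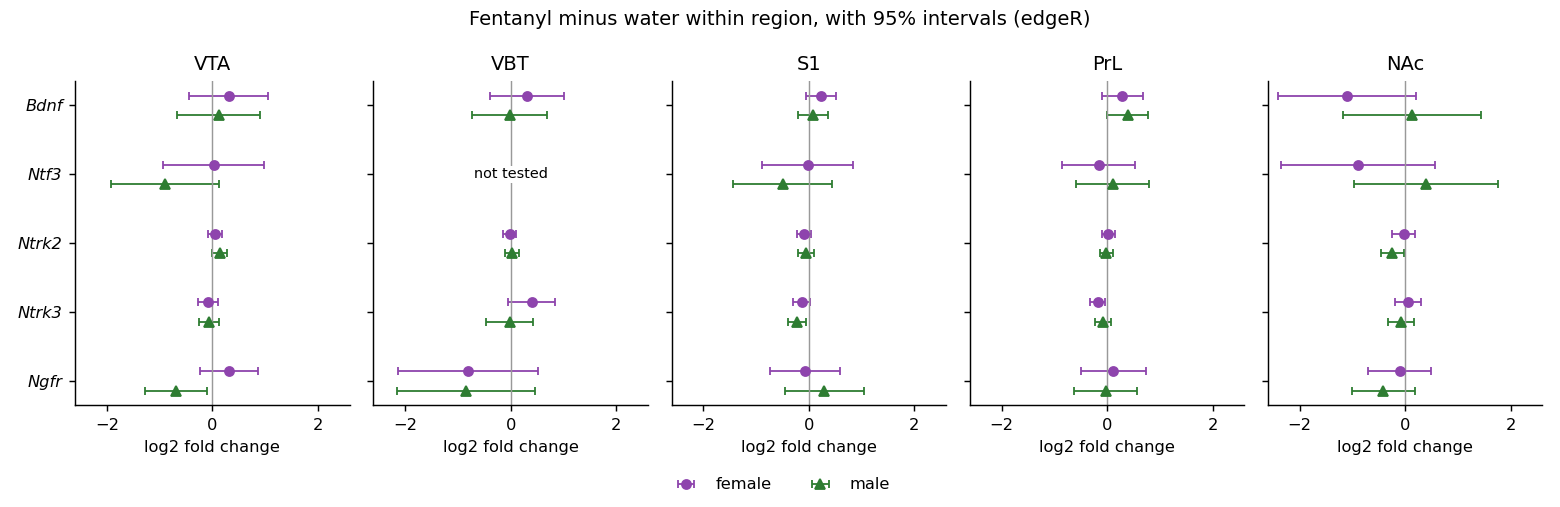
Log2 fold change of fentanyl over water (horizontal axis) with 95% intervals from edgeR, for each gene in each area, with circles for females and triangles for males. Intervals are narrow for Ntrk2, and for Ntrk3 outside VBT, and wide for Ntf3, for Bdnf in NAc and for Ngfr in VBT.

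For Bdnf the smallest p came from PrL. The female fentanyl libraries held 50.6, 47.2, 50.3, 47.2 and 56.2 CPM, and the female water libraries 47.6, 37.1, 43.1, 44.3 and 37.5. The male fentanyl libraries held 85.3, 44.0, 40.5, 47.4 and 60.7 CPM, against 45.4, 45.3, 28.9, 54.2 and 41.5 in water. The groups overlapped in both sexes, with male fentanyl 1 highest at 85.3 and male water 3, 1 of the libraries with olfactory bulb genes, lowest at 28.9. The average log2 fold change was 0.34 (SE 0.13, 95% interval 0.07 to 0.62, edgeR adjusted p = 0.172), and 0.26 without PrL female water 5 and male water 3 (edgeR adjusted p = 0.379). Reads outside exons made up 9.99% to 12.9% in the PrL fentanyl libraries and 12.1% to 14.5% in the water libraries. With that percentage as a covariate the fold change was −0.09 (edgeR adjusted p = 0.955). As the percentage nearly separated the treatments, its part and that of fentanyl cannot be told apart in this fit.

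In the other areas the Bdnf intervals all included 0. S1 females held 34.7, 32.2, 38.5, 33.7 and 39.5 CPM with fentanyl and 28.3, 28.2, 23.4, 31.6 and 39.4 with water, a difference of 0.23 (SE 0.13, edgeR adjusted p = 0.455). In NAc, where the level varied 14.2-fold between libraries, females held 1.67, 3.45, 11.98, 10.9 and 10.6 CPM with fentanyl and 21.5, 11.2, 3.81, 22.2 and 23.7 with water. Of the water libraries, those at 3.81 and 11.2 lay within the fentanyl range, and the difference was −1.11 with an interval from −2.42 to 0.20 (edgeR adjusted p = 0.581). NAc males held 17.3, 2.98, 12.4, 2.26 and 11.1 CPM with fentanyl and 8.69, 14.7, 6.92, 6.84 and 5.72 with water (0.13, interval −1.18 to 1.43). VTA females held 23.4, 27.5, 41.7, 24.0 and 20.1 CPM with fentanyl and 12.3, 29.1, 29.3, 23.6 and 15.7 with water (0.31, interval −0.44 to 1.05), and the groups overlapped. VTA males held 15.0, 23.6, 27.7, 16.7 and 47.7 with fentanyl and 20.2, 10.6, 37.7 and 30.0 with water, also with overlap (0.12, interval −0.67 to 0.91). VBT females held 17.5, 13.95, 10.3, 9.23 and 9.05 with fentanyl and 6.14, 3.68, 14.4, 12.5 and 10.9 with water, and the difference turned from 0.31 to −0.08 without VBT female water 2 and female fentanyl 1.

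Ntf3 was compared in 4 areas. In VTA, its highest area, males held 0.481, 2.91, 3.10, 1.23 and 2.24 CPM with fentanyl and 5.19, 2.68, 3.73 and 3.51 with water. All but 2 of the fentanyl libraries lay below the lowest water library, and the difference was −0.90 (SE 0.49, interval −1.92 to 0.13, edgeR adjusted p = 0.204). VTA females held 4.02, 3.86, 1.14, 3.29 and 3.83 CPM with fentanyl and 0.568, 3.71, 3.89, 4.11 and 3.49 with water, with 1 low library in each group (0.02, interval −0.94 to 0.99). In S1, PrL and NAc the differences ran from −0.90 to 0.39, and each interval included 0. In PrL its groups spanned 0.381 to 2.10 CPM, in S1 0.143 to 0.886 and in NAc 0.0578 to 1.17, all with overlap between treatments. In VBT the fentanyl libraries held at most 0.189 CPM and 1 of them held no count, which allows up to 0.0906 CPM.

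Ntrk2 levels varied least, with a coefficient of variation of 4.84% in PrL to 13.0% in NAc over all libraries of an area. NAc males held 718, 482, 583, 529 and 731 CPM with fentanyl and 681, 775, 774, 767 and 698 with water. The 3 libraries at 482 to 583 lay below every water library, while the other 2 lay within the water range. The log2 fold change was −0.25 (SE 0.11, edgeR adjusted p = 0.219), and −0.30 by limma-voom with sample weights (adjusted p = 0.0376). With offsets for exon length it was −0.06 (edgeR adjusted p = 0.798). In VTA males Ntrk2 stood at 740, 825, 847, 697 and 837 CPM with fentanyl and 727, 690, 748 and 778 with water. This difference of 0.14 (SE 0.07, edgeR adjusted p = 0.175) was called at 0.17 by limma-voom (adjusted p = 0.0188) and at 0.18 with the percentage of reads outside exons as a covariate (edgeR adjusted p = 0.0443). With offsets for exon length it was 0.05 (edgeR adjusted p = 0.583). In the other regions and in NAc and VTA females Ntrk2 differed by −0.09 to 0.05, with standard errors of 0.06 to 0.11.

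Of 48 comparisons of 1 gene within 1 sex and area, fentanyl and water libraries did not overlap in 2, both of them Ntrk3 and in opposite directions. Among all genes, groups did not overlap for 1.61% in VTA females, 22.4% in VTA males, 2.06% and 0.967% in VBT females and males, 4.22% and 1.72% in S1, 2.18% and 2% in PrL, and 0.755% and 3.5% in NAc. In PrL females fentanyl libraries held 218, 229, 241, 233 and 243 CPM and water libraries 246, 259, 311, 271 and 260, so that every fentanyl library was lower. The log2 fold change was −0.18 (SE 0.07, edgeR adjusted p = 0.430), −0.09 with exon length offsets and −0.10 with the percentage of reads outside exons as a covariate (9.99% to 11.8% with fentanyl, 12.1% to 14.1% with water). These percentages did not overlap, so that covariate and fentanyl cannot be told apart here. In VBT females fentanyl libraries held 66.5, 71.9, 55.5, 68.9 and 72.9 CPM and water libraries 54.6, 54.7, 47.6, 49.1 and 47.0, so that every fentanyl library was higher. The fold change was 0.40 (SE 0.21, edgeR adjusted p = 0.691) and 0.41 without the 2 VBT libraries that stood apart. VBT males spanned 37.3 to 87.6 CPM with fentanyl and 41.1 to 91.2 with water, and the difference of the male from the female effect was not called (−0.42, edgeR adjusted p = 0.816).

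In S1 Ntrk3 gave the smallest unadjusted p of all 96 tests. Females held 179, 188, 216, 214 and 198 CPM with fentanyl and 222, 206, 210, 215 and 236 with water, and males 198, 185, 183, 224 and 191 with fentanyl and 215, 200, 259 and 257 with water. Fentanyl libraries lay mostly in the lower part of the range, with overlap in both sexes. The average fold change was −0.18 (SE 0.06, interval −0.30 to −0.06, edgeR adjusted p = 0.118). With offsets for exon length it was −0.07 (edgeR adjusted p = 0.552).

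Ngfr in VTA gave the smallest adjusted p of the 5 genes. VTA males held 1.83, 4.91, 3.61, 1.57 and 3.98 CPM with fentanyl and 5.96, 4.44, 4.91 and 5.55 with water, and the single fentanyl library at 4.91, replicate 2, reached the water range. VTA females held 5.35, 5.76, 4.62, 5.66 and 4.85 with fentanyl and 2.43, 4.35, 5.47, 6.18 and 2.50 with water. The male difference was −0.69 (SE 0.28, interval −1.28 to −0.10, edgeR adjusted p = 0.0847), against 0.32 (SE 0.26) in females. It was −0.89 without male fentanyl 2 (edgeR adjusted p = 0.0299), −0.68 by DESeq2 (adjusted p = 0.0496), −0.62 by limma-voom (adjusted p = 0.0234) and −0.37 with GC content offsets (edgeR adjusted p = 0.496). With the library of few genes kept it was −0.38 (edgeR adjusted p = 0.9996). The difference of the male from the female effect was −1.01 (SE 0.39, edgeR adjusted p = 0.420). In VBT, Ngfr stood at 2.74, 5.23, 2.42, 2.59 and 2.11 CPM in fentanyl females against 10.3, 10.8, 1.57, 2.13 and 1.67 in water, and at 2.68, 3.25, 7.81, 8.40 and 6.85 in fentanyl males against 3.52, 3.29, 24.0, 15.7 and 4.98 in water. The 4 highest values were water libraries, 2 of each sex, and the groups overlapped in both sexes. The average difference was −0.83 with an interval from −1.76 to 0.10 (edgeR adjusted p = 0.619), or −0.61 without VBT female water 2 and female fentanyl 1. By limma-voom with sample weights it was −0.06 (adjusted p = 0.975). In S1, PrL and NAc the Ngfr differences of 1 sex lay between −0.42 and 0.30, and each interval included 0.

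Of the 52 other genes of the pathway, 49 had enough counts to be tested in VTA, VBT, PrL and NAc and 48 in S1, and Rtn4r had no count in any library. In VTA males 7 were higher and 13 lower with fentanyl, with a median log2 fold change of −0.09 over the 49 against 0.00 over all genes. These 20 of 49 stand beside 22% of all genes called in VTA males, a share that rests on 4355 calls and falls to 42 calls with the library of few genes kept. By role, 6 of 16 Trk adaptors, 3 of 7 p75NTR adaptors, 1 of 7 processing genes and 3 of 12 Bdnf regulators fell, and 1, 1, 0 and 5 rose. Among these, Frs3, which links Trk receptors to the MAP kinase cascade, fell from 35.8 ± 3.34 (SD, n = 4) to 23.9 ± 1.56 CPM (SD, n = 5), a change of −0.54 (edgeR adjusted p = 0.00222). Furin, a protease that cuts proneurotrophins, fell by 0.48 on the log2 scale (edgeR adjusted p = 0.00359). Bex3, a p75NTR-binding protein, fell by 0.39 (edgeR adjusted p = 0.00426), and Usf2, a transcription factor at Bdnf promoters, fell by 0.53 (edgeR adjusted p = 0.00427). The VTA marker list summed to 335 to 1240 CPM (median 678) in these libraries with fentanyl and to 864 to 1499 (median 1143) with water, and its part in these counts was not tested.

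For the average over the sexes in VTA 8 of the 49 rose and 13 fell, beside 23.1% of all genes called (4580, or 60 with the library of few genes kept). Creb1, whose product binds cyclic AMP response elements, rose by 0.30 (edgeR adjusted p = 0.00358), and Crtc1, its coactivator, fell by 0.26 (edgeR adjusted p = 0.00178). In S1 Bex3 rose by 0.28 on average (edgeR adjusted p = 0.0285), and in PrL Maged1, another p75NTR-binding protein, rose by 0.14 (edgeR adjusted p = 0.0483). The percentage of reads outside exons nearly separated the treatments in PrL. With it as a covariate no gene was called for the PrL average (133 without it), which ends the call of Maged1. For the S1 average 41 in place of 203 genes were called with it, and whether Bex3 was among them is not reported here. None of the 48 or 49 was called by edgeR in the other 16 contrasts, where 1 to 11 had an unadjusted p under 0.05. Among all genes that share was 2.59% (sex difference of the effect in PrL) to 17.6% (NAc males, with the 11). The pathway list was chosen with earlier results of these libraries known and is not independent evidence of a direction.

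The variation of each gene among libraries of 1 area was set beside the scores (mean log2(CPM + 1)) of 18 marker lists of tissues and cell states. Of 450 relations, 77 had a permutation p under 0.05 after adjustment by Benjamini-Hochberg (100000 permutations, which can give 1e-05 at the smallest). Bdnf in NAc tracked cortical markers, Ngfr in VBT with cholinergic neuron markers, and Ntf3 in VTA with dopamine neuron and midbrain markers. The gene level and the list score of each point were read in the same library, and what makes them vary together was not tested.

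**Figure D4:**
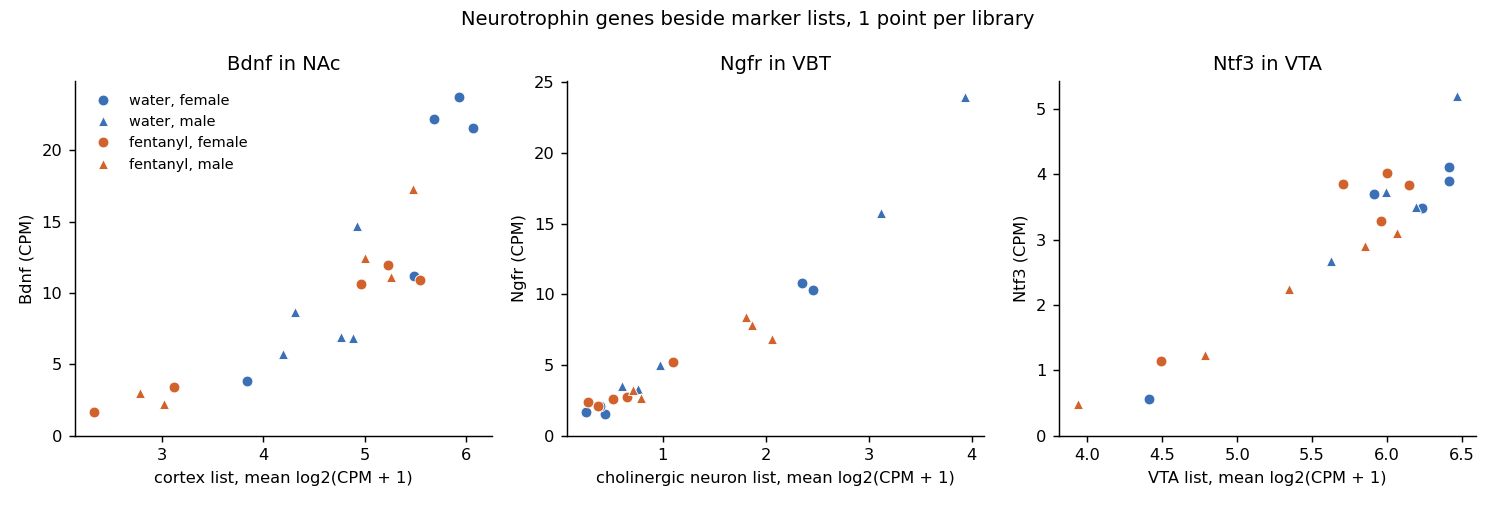
CPM of Bdnf in NAc, Ngfr in VBT and Ntf3 in VTA (vertical axes, from 0) against the mean log2(CPM + 1) of a marker list (horizontal axes), 1 point per library, coloured by treatment and shaped by sex. In each panel the level climbs with the list score within both treatments.

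Bdnf in NAc followed the cortex list, which includes Slc17a7, Tbr1 and Neurod6, with r = 0.950 and rho = 0.913 over 20 libraries (permutation p = 1e-05, the smallest possible, adjusted p = 0.00045). Within treatments r was 0.977 with fentanyl and 0.911 with water, and without the 2 libraries farthest from the median score it was 0.932. The libraries were also split at the widest gap in the score that left 6 or more on each side, here and for the next lists, and r was 0.924 (n = 7) below and 0.806 (n = 13) above it. All 6 markers had counts in every NAc library, and their sum ran from 56.0 to 864 CPM (median 596) in fentanyl females, 261 to 1442 (median 1043) in water females, 91.3 to 792 (median 684) in fentanyl males and 376 to 741 (median 540) in water males. The list score was then used as a covariate. This was added after the data were seen, here and for the 2 lists that follow, and each list was chosen because it tracked the gene in the same libraries, so a smaller difference partly follows from that choice and is given as a description. With the score the female Bdnf difference in NAc was −0.10 in place of −1.11 (edgeR adjusted p = 0.998). Bdnf in NAc ran opposite to the striatum list (r = −0.875, rho = −0.850, permutation p adjusted to 0.00045 for r).

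Ngfr in VBT followed the cholinergic neuron list (Chat, Slc5a7, Slc18a3 and Lhx8), with r = 0.977 and rho = 0.949 over 20 libraries (permutation p = 1e-05, adjusted p = 0.00045). It was 0.959 with fentanyl, 0.982 with water, 0.961 without the 2 farthest libraries, and 0.886 (n = 13) and 0.971 (n = 7) below and above the split. Slc18a3 and Lhx8 were each at 0 in 1 VBT library, and the summed list ran from 0.959 to 5.77 CPM in fentanyl females, 0.978 to 20.8 in water females, 2.98 to 15.4 in fentanyl males and 2.65 to 69.2 in water males. With this score as a covariate the average Ngfr difference in VBT was 0.07 in place of −0.83 (edgeR adjusted p = 0.883). In VTA the sign was opposite, with r = −0.913 and rho = −0.716 over 19 libraries (permutation p adjusted to 0.00132 and 0.0135), −0.900 with fentanyl, −0.970 with water and −0.868 without the 2 farthest libraries. There r was −0.919 above the split (n = 8) and 0.00558 below it (n = 11), where the scores spanned only 0.74 to 1.05. Of the 4 markers, Chat, Slc5a7 and Slc18a3 had r from −0.931 to −0.883 with Ngfr in VTA, while Lhx8 was at 0 in 11 of the 19 libraries and had r = 0.231. In VTA females the summed cholinergic list was 4.20 to 5.60 CPM with fentanyl and 4.78 to 42.2 with water, and in males 6.46 to 112 with fentanyl and 4.01 to 6.61 with water, and its part in the Ngfr values of the groups was not tested.

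Ntf3 in VTA followed the VTA list, which holds the midbrain transcription factors Foxa2, En1 and Pitx3 beside Th, the dopamine transporter Slc6a3 and the vesicular transporter Slc18a2, with r = 0.967 and rho = 0.837 over 19 libraries (permutation p = 1e-05, adjusted p = 0.00045). It was 0.971 with fentanyl, 0.968 with water and 0.939 without the 2 farthest libraries, and 0.969 (n = 7) and 0.685 (n = 12) below and above the split. Among single markers Th gave r = 0.960 and Slc18a2, which serotonin neurons also use, 0.503. The list summed to 335 to 1240 CPM in fentanyl males and 864 to 1499 in water males, and to 440 to 1361 and 478 to 1733 in females, with all 6 markers present. With the score as a covariate the male Ntf3 difference was −0.05 in place of −0.90 (edgeR adjusted p = 0.897), and the male Ngfr difference −0.35 in place of −0.69 (edgeR adjusted p = 0.352).

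Other relations concerned the receptors and activity. Ntrk2 in VTA ran opposite to oligodendrocyte markers (r = −0.839, rho = −0.858, n = 19, permutation p adjusted to 0.000844 and 0.00188; r = −0.825 without the 2 farthest libraries), and so did Bdnf in VBT (r = −0.827, rho = −0.847, n = 20, permutation p adjusted to 0.00045 and 0.000643; r = −0.649 without the 2 farthest libraries). Bdnf in PrL had r = 0.634 with the activity-induced list, among them Fos, Arc and Npas4 (permutation p adjusted to 0.0224), but rho was 0.454 (adjusted to 0.188), r was 0.0559 within the water libraries and 0.380 without the 2 farthest. That list summed to 359 to 658 CPM in fentanyl females against 269 to 476 in water, and to 336 to 1063 in fentanyl males against 294 to 475, with Egr2 at 0 throughout. Its part in the Bdnf values was not tested. In VTA, VBT, S1 and NAc the relation of Bdnf to the activity list did not pass (r from −0.148 to 0.310).

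The genes most like each of the 5 were sought among 12076 genes with a mean of 5 CPM or more, as a description over the 98 libraries. Across areas, Bdnf was most like Camk1, a calmodulin-dependent kinase (r = 0.91), Ntf3 like Fchsd1 (0.89), Ntrk2 like Gapvd1 (0.84), Ntrk3 like AI504432 (0.96) and Ngfr like Sema4d, a semaphorin (0.91). Others of the 3 closest were Prkar1b and Car10 for Bdnf, Ntsr1 for Ntf3, Ttc3 and Usp34 for Ntrk2, Afdn and Ids for Ntrk3, and March8 and Lamp1 for Ngfr. Once the group means were removed, leaving the spread within groups, the closest were Nrn1, Sstr3 and Adcyap1 for Bdnf (0.83 to 0.84) and Slc6a3 (dopamine transporter), Ret (a receptor of glial-derived neurotrophic factor) and Chrna6 for Ntf3 (0.64 to 0.69). For the receptors they were B930095G15Rik, Farp1 and Mpdz for Ntrk2 (0.70 to 0.74), Fnbp1l, Cacna1e and Trank1 for Ntrk3 (0.74 to 0.78), and Elfn1, Lhx6 and Rab3b for Ngfr (0.72 each). Among the 5 themselves the closest pair within groups was Bdnf and Ntrk2 (0.56).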

How the data were processed

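Bulk RNA was measured in 99 libraries. Per the labels' protocols, extraction used Trizol, a column kit and DNase, and libraries were made from 10 ng by Smart-Seq v4. Each library has a file deposited by the authors with its raw read count for every Ensembl gene. The submitters' processing notes name HTSeq and GRCm38; the aligner, annotation and strand setting are not given in the sources used here. Lines that name no gene (16.2% to 24.0% of reads) were kept out of totals and tests. No 2 libraries held identical values. The library of VTA, male, water, replicate 3, with fewer than 10000 genes detected, was left out.

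Each area was fitted over its 4 groups with edgeR 4.0.16 (TMM scaling, filterByExpr, robust quasi-likelihood test), with contrasts for fentanyl in females, in males, on average and between the sexes. The water libraries of all areas were fitted together for the 10 pairs of areas. P-values were adjusted over all genes by Benjamini-Hochberg, and a call needed an adjusted p under 0.05. CPM used total gene counts, marker scores were the mean log2(CPM + 1), and GENCODE M21 gave positions and exon lengths. The edgeR fits were also run on simulated counts with 1 spread shared by all genes. That setting does not cover genes that vary as widely as Bdnf in NAc, and its outcome is not reported here. Alternatives used DESeq2 1.42.0, limma 3.58.1, other scalings, filters, offsets, covariates and left-out libraries. Permutation tests used numpy 2.4.6, with ranks from scipy 1.17.1, and figures used matplotlib 3.10.9, with R 4.3.3 and Python 3.11.15.

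The 5 genes and all lists were chosen with earlier results of these data known. Named genes are the 5 whatever their values, Ntf5 and Sort1, up to 4 called pathway genes of smallest p per fentanyl contrast, and the 3 genes most like each of the 5 by Pearson r. Some genes under this rule are not reported here.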

Additional observations from a re-analysis of the deposited data

Results flagged for a closer look

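Each of the 100 sets of values of 1 gene in 1 group of 4 or 5 libraries was searched for a library far from the rest, by the gap to its nearest neighbour over the range of the group. In 9 of them the lowest or highest library stood apart, where chance gives about 5. Ntf3 gave 4 of the 9: VTA female fentanyl 3 at 1.14 CPM (next 3.29), VTA female water 1 at 0.568 (next 3.49), PrL female water 5 at 0.381 (next 1.40) and NAc male fentanyl 5 at 1.17, above the next at 0.326. Ngfr was high in VBT female fentanyl 2 at 5.23 CPM (next 2.74) and low in S1 female fentanyl 1 at 0.221 (next 0.526). Bdnf was low in VBT male water 3 at 2.91 CPM (next 7.91), the library that held the highest Ngfr of that group. Ntrk2 was low in PrL female water 1 at 718 CPM (next 803), and Ntrk3 in VTA female fentanyl 3 at 205 CPM (next 231).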

How the results depend on the processing

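Among fentanyl contrasts, limma-voom with sample weights called 2 of the 5 genes in VTA males (Ntrk2 and Ngfr), 1 for the VTA average (Ntrk2) and 1 in NAc males (Ntrk2), where edgeR called 0; over all genes limma-voom called 32.9%, 26.9% and 7.76% there. DESeq2 called 1 in VTA males (Ngfr, beside 25.4% of all genes), and the percentage of reads outside exons as a covariate called 1 in VTA males and 1 for the VTA average, both Ntrk2 (27.9% and 29.3% of all genes). Leaving out single libraries gave 0 to 1 in VTA males. With all libraries kept, 1 of the 5 (Ntf3) in place of 2 differed between S1 and PrL, and the limma-voom difference of Ngfr between VTA and VBT turned to 0.23; the cause was not tested. Of 927 fentanyl values of single genes under the other settings, 920 kept their side of the threshold and 74 had the other sign. Between areas 420 of 450 kept their side of the threshold and 18 had the other sign. Over all genes, calls under the other settings ran from 42 (all libraries kept) to 6520 (limma-voom) around 4355 in VTA males, from 60 to 5817 around 4580 for the VTA average, from 41 to 645 around 203 for the S1 average, from 0 to 778 around 133 for the PrL average, from 2 (replicate block) to 1512 (limma-voom) around 129 in NAc males, from 0 to 402 around 28 in S1 females and from 0 to 46 around 4 in PrL females. Leaving out 1 library moved them to between 2659 (without VTA male water 4) and 4664 in VTA males, 30 (S1 male water 4) and 502 (S1 male fentanyl 5) for the S1 average, 38 (PrL female water 5) and 289 (PrL female water 1) for the PrL average, 0 (NAc male water 3) and 813 (NAc male fentanyl 5) in NAc males, 0 (S1 female fentanyl 1) and 220 (S1 male fentanyl 5) in S1 females, and 0 (PrL female fentanyl 1) and 7 (PrL male water 5) in PrL females. Of the contrasts with 0 calls by edgeR, the NAc sex difference of the effect reached 449 without NAc female water 3 and 1302 by limma-voom, the VTA one 603 by limma-voom, the NAc average 285 and VTA females 139 with the covariate of reads outside exons, and the VBT sex difference of the effect 109 by DESeq2. The sex difference in water reached 602 in NAc and 2789 in VTA by limma-voom. Deviations of same-numbered fentanyl and water libraries had r from −0.491 to 0.538 (48 pairs, median 0.063), with 18 pairs over 0.1. Those of same-numbered libraries of different areas had r from −0.302 to 0.515 (192 pairs, median 0.058), with 73 over 0.1. Whether same-numbered libraries of different areas came from 1 animal cannot be told from these values or the labels. The main comparisons of areas treated all libraries as independent. A replicate block changed no fentanyl call of the 5 genes (0 called) and ended 2 calls between areas, Ngfr between VTA and VBT (−0.33) and Ntf3 between S1 and NAc (0.94, edgeR adjusted p = 0.0544). Depth limits Ntf3 in VBT, at 0 to 8 counts per water library, and Ngfr in cortex, at 7 to 47.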

Other observations

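The VTA library left out for its few detected genes held no count of Bdnf, Ntf3 or Ngfr, which allows up to 0.182 CPM, whereas the other VTA water libraries held at least 10.6, 0.568 and 2.43 CPM. It held 784 CPM of Ntrk2, within their range of 660 to 876, and 50.3 CPM of Ntrk3, below their range of 194 to 289.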
